A study of Mus musculus with 6 samples.

Results

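The 8 genes described here encode 6 enzymes of cholesterol synthesis (Hmgcs1, Idi1, Fdft1, Sqle, Lss and Cyp51), the sterol sensor Insig1 and the transcription factor gene Srebf2, whose product SREBP2 switches such genes on. They were chosen by gene symbol, as known members and targets of the pathway, from a table of 16060 rows, and all 8 were found, each on 1 row. Hippocampal RNA had been sequenced from 3 C57BL/6 mice of the Control group and 3 C57BL/6 mice of the MA group. MA mice were injected intraperitoneally with methamphetamine (MA) at 5 mg/kg in week 1, 10 mg/kg in week 2 and 15 mg/kg in week 3, and Control mice with saline. The mice were adult males, and open field and elevated plus maze tests came after the last week. The doses, route, age and sex are those of the methods for the study's animals and are not in the sample labels. No genotype, transgene or pooling of mice is named for either group. Groups are those of the sample labels, and "higher" and "lower" refer to the libraries labelled MA against the libraries labelled Control. Every direction rests on these labels and on the column names of the table. The immediate early genes Fos, Egr1, Arc and Nr4a1, which acute doses of stimulants are known to induce, fell in the libraries labelled MA, with log2 fold changes of -1.61, -1.46, -1.80 and -1.45 (limma adjusted p = 0.0315, 0.0181, 0.0181 and 0.0244). The study reports the opposite direction for these genes, raised in MA both by RNA-seq and by qPCR. Whether the column names match the treatments was not tested, and if they were exchanged every sign given here would turn.

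Cholesterol in the brain is made there, because lipoproteins of the blood hardly cross the blood-brain barrier. In adults astrocytes supply neurons with sterol carried on ApoE, and oligodendrocytes build it into myelin. When sterol in the membrane of the endoplasmic reticulum falls, the escort protein SCAP carries SREBP2 to the Golgi, where proteases release its active part. That part binds sterol regulatory elements in the promoters of synthesis genes, of Insig1 and of Srebf2 itself. When sterol is plentiful, INSIG proteins hold SCAP back. RNA of these genes is therefore widely used as a readout of SREBP2 activity, although RNA does not measure the enzymes or the sterol.

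The stretches that follow show what a sterol regulatory element looks like in genes of this set. RefSeq promoter windows on GRCm38.p6, from 250 bases before to 50 bases after a transcript start, were at hand for 6 of the 8 genes, and Fdft1 and Sqle had none. The core letters TCACCCCA were searched on both strands and found in the windows of Hmgcs1 and Srebf2, against 1.56% of all 32851 windows. The looser form TCACNNCA, which includes the core, was also found in the window of Cyp51, against 13.8% of all windows. Each line gives bases around the match, 5′ to 3′ on the strand of the gene, with the matched letters in capitals.
Hmgcs1: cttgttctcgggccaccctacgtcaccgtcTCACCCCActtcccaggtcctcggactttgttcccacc
Srebf2: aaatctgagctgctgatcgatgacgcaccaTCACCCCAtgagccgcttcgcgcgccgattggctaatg
Cyp51: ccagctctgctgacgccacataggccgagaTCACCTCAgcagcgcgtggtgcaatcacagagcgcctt
The Hmgcs1 stretch is chr13:119690184-119690251 on the plus strand, the Srebf2 stretch chr15:82147077-82147144 on the plus strand and the Cyp51 stretch chr5:4104748-4104815 on the minus strand. None of their bases lies in an annotated exon. Neither form was found in the windows of Idi1, Lss and Insig1, which says only that these letters are not in those windows. All 6 windows held at least 1 CCAAT box, the site of the partner factor NF-Y (letters CCAAT, either strand), against 37.4% of all windows. The matches are a description and were not measured by RNA-seq.

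An intron of Srebf2 also holds the microRNA gene Mir33, a known partner of SREBP2 in sterol balance, and its main mature product is shown because it lies in a member's intron.
mmu-miR-33-5p: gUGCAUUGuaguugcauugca
The capitals mark the seed, bases 2 to 8, and the sequence lies at chr15:82198127-82198147 on the plus strand of GRCm38.p6. The level of the microRNA itself was not analysed here.

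Values are the deposited ones, on a log scale read as log2 of RPKM plus 1. RPKM is a read count divided by gene length and by the library's total, so levels can be set beside each other between genes. The table holds no read totals, and depth is unknown. All 6 libraries shared one top value, and 96.7% of the distinct values over 2 occurred in at least 2 libraries. Among the 8 genes the value 3.94 stood, with all its decimals, for Insig1 in Control replicate 1, Idi1 in Control replicate 2 and Sqle in Control replicate 3. Nearly all values thus came from 1 shared set of levels. MA replicate 3 stood apart: its mean correlation with the other MA libraries was 0.978 across the tested genes (a description), against 0.984 to 0.993 for every other library with its own group. RNA of another tissue also differed between the groups. All 8 listed markers of the choroid plexus, the epithelium that secretes cerebrospinal fluid, were higher in every MA library than in any Control library. Over all tested genes, 7.32% had every MA library above every Control library.

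The 8 genes lie on 5 chromosomes of GRCm38. Hmgcs1 is at chr13:119690379-119708260 and Idi1 at chr13:8885501-8892451, both on the plus strand. Fdft1 is at chr14:63145150-63179578 on the minus strand and Lss at chr10:76531588-76557138 on the plus strand. Sqle at chr15:59315077-59331192 and Srebf2 at chr15:82147181-82205379 share a chromosome and the plus strand, while Cyp51 at chr5:4081145-4104746 is on the minus and Insig1 at chr5:28071363-28078662 on the plus strand.

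In length-adjusted level Hmgcs1 was the highest of the 8 genes, with back-transformed values of 36.1 to 56.1 RPKM over the 6 libraries. Srebf2 followed at 23.1 to 30.5 RPKM, then Fdft1 at 21.8 to 27.4 RPKM and Insig1 at 14.4 to 23.7 RPKM. Sqle, Cyp51 and Idi1 were close to each other, at 11.4 to 17.2, 9.97 to 16.1 and 9.15 to 15.8 RPKM. Lss was the lowest, at 2.96 to 5.78 RPKM. Only Hmgcs1 at the top and Lss at the bottom had ranges clear of their neighbours. Within libraries Srebf2 was above Fdft1 in 6 of 6 and Fdft1 above Insig1 in 6 of 6, whereas Sqle was above Cyp51 in 5 and Cyp51 above Idi1 in 4.

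None of the 8 genes passed the adjusted threshold between the groups (limma, Benjamini-Hochberg adjustment over 13321 tested genes), where 0.263% of all tested genes passed it. All 8 were tested. At an unadjusted p under 0.05 there was 1 gene, Idi1, which was lower, where 10.4% of all tested genes passed that threshold and 5.46% passed it as lower. The groups did not overlap for 1 of the 8, again Idi1, where 17.5% of all tested genes did not overlap and 10.2% had every MA library below. Of the 8 genes 4 were lower and 4 higher, and of all tested genes 52.7% were lower and 47.3% higher. The median log2 fold change was -0.042 over the 8 genes and -0.010 over all tested genes. The shares of the set were thus close to those of the table as a whole. A log2 fold change here is the MA mean minus the Control mean on the log2 (RPKM + 1) scale, which understates the change of low genes such as Lss.

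**Figure D1:**
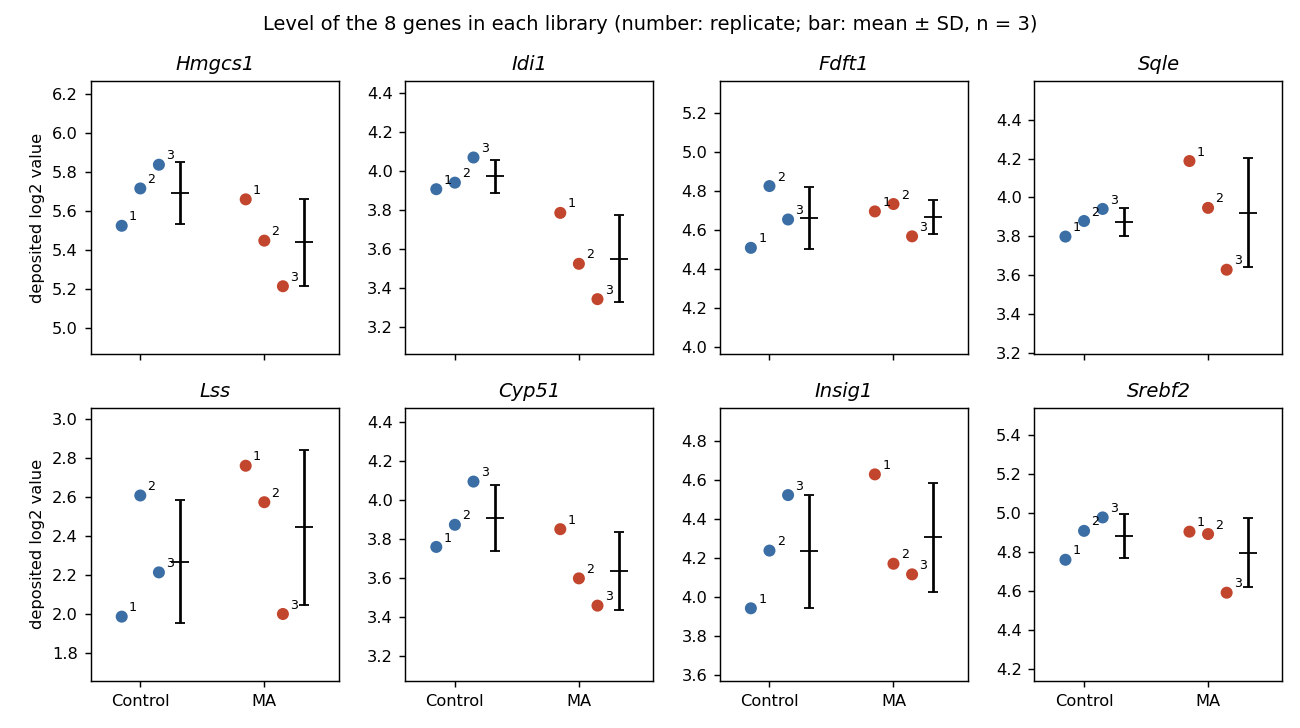
Deposited log2 value of each of the 8 genes in the 3 Control (blue) and 3 MA (red) libraries, with replicate numbers beside the points and bars for the mean ± SD (n = 3). Every panel spans the same range on the log2 axis. Only for Idi1 do the points of the groups not overlap, and MA replicate 3 is the lowest point for 5 genes.

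The entry of the pathway is represented by Hmgcs1 and Idi1. Hmgcs1 encodes the cytosolic enzyme that makes HMG-CoA. Its log2 values were 5.52, 5.71 and 5.84 in Control replicates 1, 2 and 3, and 5.66, 5.45 and 5.21 in MA replicates 1, 2 and 3. MA replicate 1 lay within the Control range and the other two MA libraries below it. The difference was -0.25 (standard error 0.13, 95% interval -0.57 to 0.06, adjusted p = 0.582 from limma). Idi1 encodes the isomerase that readies the first isoprene units for joining. Its values were 3.91, 3.94 and 4.07 in the Control libraries and 3.79, 3.53 and 3.34 in the MA libraries, so each MA library was below each Control library. The difference of -0.42 corresponds to 0.747 times the Control level (standard error 0.13, 95% interval -0.72 to -0.12, unadjusted p = 0.0119, adjusted p = 0.329 from limma). The exact two-sided permutation test gave p = 0.1, the smallest that 3 libraries against 3 allow. By unadjusted p, Idi1 ranked 481 of the 13321 tested genes. The neighbouring paralog Idi2 was listed between 0 and 0.0483 on the log2 scale.

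The squalene steps showed no such separation. Fdft1, squalene synthase, commits the pathway to sterols. Its log2 values were 4.51, 4.83 and 4.66 in the Control libraries and 4.70, 4.74 and 4.57 in the MA libraries. All 3 MA values lay within the Control range, and the difference was 0.0027 (standard error 0.11, 95% interval -0.24 to 0.25, limma adjusted p = 0.997). Sqle, squalene epoxidase, is a second control point of flux. It stood at 3.80, 3.88 and 3.94 in the Control libraries and at 4.19, 3.95 and 3.63 in the MA libraries. The MA libraries thus spanned the whole Control range and more, with an SD of 0.28 against 0.071 (n = 3 each). The difference was 0.05 (95% interval -0.29 to 0.39, limma adjusted p = 0.943).

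Lss and Cyp51 act on the first sterols. Lss folds oxidosqualene into lanosterol, and its log2 values were 1.99, 2.61 and 2.21 in the Control libraries and 2.76, 2.57 and 2.001 in the MA libraries. Its range over the 6 libraries was the widest of the 8 genes, and the lowest value of one group nearly equalled that of the other. The difference was 0.18 (standard error 0.23, 95% interval -0.37 to 0.72, limma adjusted p = 0.853). Cyp51 removes the 14-alpha methyl group of lanosterol. It stood at 3.76, 3.87 and 4.09 in the Control libraries and at 3.85, 3.60 and 3.46 in the MA libraries, with MA replicate 1 inside the Control range. The difference was -0.27 (standard error 0.14, 95% interval -0.59 to 0.04, limma adjusted p = 0.550). Exons of Cyp51 overlap those of Akap9 on the other strand, and exons of Fdft1 overlap those of Ctsb. Hmgcs1, Idi1 and Lss likewise have exons that overlap those of other annotated genes on the other strand. Whether counting used strand is not stated, so reads there cannot be assigned with certainty. Akap9 and Ctsb differed by -0.12 and -0.01 on the log2 scale.

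The regulators Insig1 and Srebf2 also had overlapping groups. Insig1 is itself an SREBP2 target and closes a feedback loop. Its log2 values were 3.94, 4.24 and 4.52 in the Control libraries and 4.63, 4.17 and 4.12 in the MA libraries. The spread within each group, with SDs of 0.29 and 0.28 (n = 3 each), was larger than the difference of 0.07 (95% interval -0.37 to 0.51, limma adjusted p = 0.937). Srebf2 stood at 4.76, 4.91 and 4.98 in the Control libraries and at 4.90, 4.89 and 4.59 in the MA libraries. MA replicates 1 and 2 lay inside the Control range and MA replicate 3 below it. The difference was -0.09 (standard error 0.11, 95% interval -0.35 to 0.18, limma adjusted p = 0.853). A p above the threshold does not show that the levels were equal, and the intervals give the differences the data allow.

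Much of the variation of the 8 genes lay between libraries of the same group. The share of a gene's total sum of squares that lay between the groups was 70.1% for Idi1, 45.0% for Cyp51 and 38.9% for Hmgcs1, and at most 11.3% for the other 5. The median was 9.77% over the 8 genes and 16.8% over all tested genes. The lowest of the 6 values was in MA replicate 3 for 5 genes (Hmgcs1, Idi1, Sqle, Cyp51 and Srebf2) and in Control replicate 1 for the other 3 (Fdft1, Lss and Insig1). Over all tested genes the lowest value was in MA replicate 3 for 29.8% and in Control replicate 1 for 14.8%. The highest value was in Control replicate 3 for 4 genes, in MA replicate 1 for 3 and in Control replicate 2 for Fdft1. Averaged over the 8 genes, each centred on its own mean, MA replicate 1 stood at 0.17, Control replicate 3 at 0.15, Control replicate 2 at 0.11, MA replicate 2 at -0.03, Control replicate 1 at -0.12 and MA replicate 3 at -0.28 on the log2 scale. Both extremes of this order were MA libraries. Without MA replicate 3 the differences were -0.14 for Hmgcs1, -0.32 for Idi1 and -0.18 for Cyp51, and 0.19 for Sqle, 0.40 for Lss and 0.17 for Insig1, with none past the adjusted threshold.

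**Figure D2:**
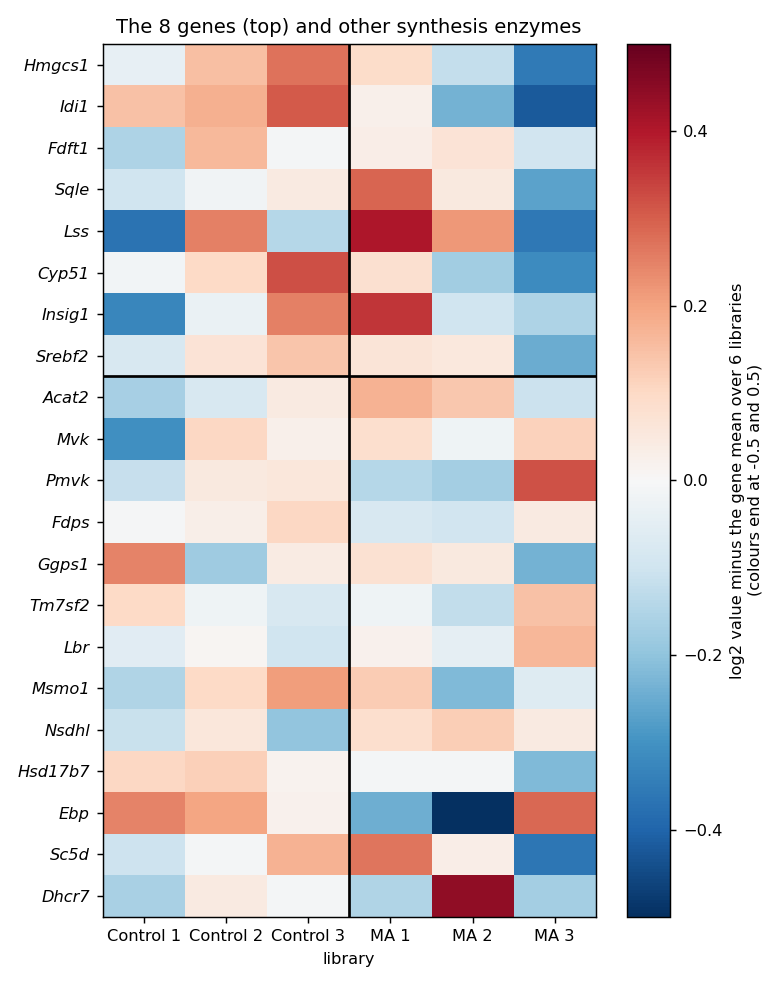
Log2 value minus the gene's mean over the 6 libraries, as colour, for the 8 genes (above the line) and the 13 other synthesis enzymes in the table, in the 3 Control and 3 MA libraries. MA replicate 3 is the bluest column for the 8 genes, at -0.28 on average, and MA replicate 1 and Control replicate 3 are the reddest, at 0.17 and 0.15.

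Hmgcs1 and Cyp51 put the 6 libraries in the same order. Their Pearson correlation over 6 libraries was 0.978 and their Spearman rho 1 (exact permutation p = 0.00139 and 0.00278). Adjusted over the 28 pairs of the 8 genes, these became 0.0389 and 0.0778, and no other pair passed 0.05. Without MA replicate 3 and Control replicate 3, the libraries farthest from the median of Hmgcs1, r was 0.951 over 4 libraries. With each value centred on the mean of its group, r was 0.966, given as a description. The share of all gene pairs that reach such an r is not given here, so no tie particular to this pathway is claimed. The tested genes outside the set with the closest profile to the mean of the 8 were Fads6, Rrp7a, Scg3, Ntm and Chrm2, with Pearson's r of 0.996, 0.994, 0.991, 0.987 and 0.986 over the 6 libraries. They are the highest of all tested genes by construction, so no p is given, and their log2 fold changes were -0.09, -0.08, -0.07, -0.11 and -0.08.

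The rest of the synthesis route also gave no call. Of 14 further enzymes listed, 13 were found and tested, and Mvd is not analysed here. None passed the adjusted threshold (limma), 0 reached an unadjusted p under 0.05, 7 were higher and 6 lower, and the median log2 fold change was 0.0020. The enzymes before squalene had differences of 0.13 for Acat2, 0.12 for Mvk, 0.0053 for Pmvk, -0.09 for Fdps and -0.07 for Ggps1, the last of which serves protein prenylation. Acat2 has a close paralog, Acat3, with which reads could be shared. Among the enzymes after lanosterol, Ebp had the largest difference, -0.31, with an adjusted p of 0.651 (limma) and a range of 2.98 to 3.78 within the MA libraries alone. Without MA replicate 3 it was -0.53 (limma adjusted p = 0.0712), with sample quality weights -0.56 (limma adjusted p = 0.0513) and without MA replicate 2 -0.13, which is smaller in size than the -0.19 of Hsd17b7 in that fit. Hsd17b7 was lower in each MA library than in any Control library, at 1.86 to 2.07 against 2.10 to 2.20, a difference of -0.16 that did not pass (limma adjusted p = 0.667). Dhcr7, which acts at the end of the route, differed by 0.08. Tm7sf2, Lbr, Msmo1, Nsdhl and Sc5d differed by 0.0020, 0.10, -0.11, 0.17 and -0.04.

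Genes that carry SREBP proteins from membrane to nucleus gave the 1 call in the neighbourhood of the set. Of 10 listed, 9 were tested, and 1 passed the adjusted threshold: Srebf1, the gene of SREBP1, the paralog of SREBP2 that drives fatty acid synthesis. Control replicates 1, 2 and 3 stood at 3.27, 3.22 and 3.29 on the log2 scale, and MA replicates 1, 2 and 3 at 3.86, 3.89 and 3.96. The groups were far apart, with SDs of 0.035 and 0.051 (n = 3 each). Srebf1 rose by 0.64 in MA, 1.56 times the Control level (standard error 0.08, 95% interval 0.45 to 0.83, adjusted p = 0.0394 from limma), where 0.165% of all tested genes were called higher. The call was lost with the replicate number as a block (adjusted p = 0.262, limma), with no filter on low values (adjusted p = 0.0763, limma) and when any 1 of 5 libraries was left out. Its log2 fold change stayed between 0.61 and 0.66 over the 6 omissions. Only without MA replicate 3 was it kept (adjusted p = 0.0274, limma), and without the other 5 libraries the adjusted p lay between 0.0971 and 0.220. All 8 choroid plexus markers were higher in the same libraries, and their part in the Srebf1 difference was not tested. Exons of Srebf1 overlap those of Rai1 on the other strand, and Rai1 differed by 0.09.

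The difference between the paralogs was looked at after their values were seen. In each library Srebf1 minus Srebf2 was -1.49, -1.69 and -1.69 on the log2 scale for Control and -1.04, -1.005 and -0.63 for MA. Every MA library was thus above every Control library in the level of Srebf1 relative to Srebf2. The shift was 0.73 (exact permutation test, two-sided, p = 0.1, the smallest the design allows). Srebf1 alone differed by 0.64 and had already been seen to separate the groups, so this p adds little of its own.

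Scap, the escort of both SREBPs, stood at 4.29, 4.27 and 4.24 in the Control libraries and at 4.46, 4.60 and 4.39 in the MA libraries, without overlap. Its difference of 0.22 had an unadjusted p of 0.0364 and did not pass after adjustment (limma adjusted p = 0.442). Mbtps1, the first Golgi protease of the pathway, also did not overlap, at 3.69 to 3.80 against 3.93 to 4.02, with a difference of 0.21 (limma adjusted p = 0.458). For Mbtps2, the second protease, the difference was -0.05 with overlapping groups. Insig2, which holds SCAP back without being an SREBP2 target, was 5.21, 4.66 and 4.87 in the Control libraries and 5.28, 5.01 and 3.97 in the MA libraries. Its difference of -0.16 rests on MA replicate 3, without which it was 0.23. Ufd1, which takes part in the degradation of proteins of the endoplasmic reticulum, differed by 0.15 (limma adjusted p = 0.563). Unadjusted p-values under 0.05 were reached by 3 of the 9 tested genes, all higher, where 4.99% of all tested genes were higher at that threshold. The groups did not overlap for 4 of the 9, all of them higher, against 7.32% of all tested genes. The list is short and was made with earlier results of these data known, so these counts are a description.

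**Figure D3:**
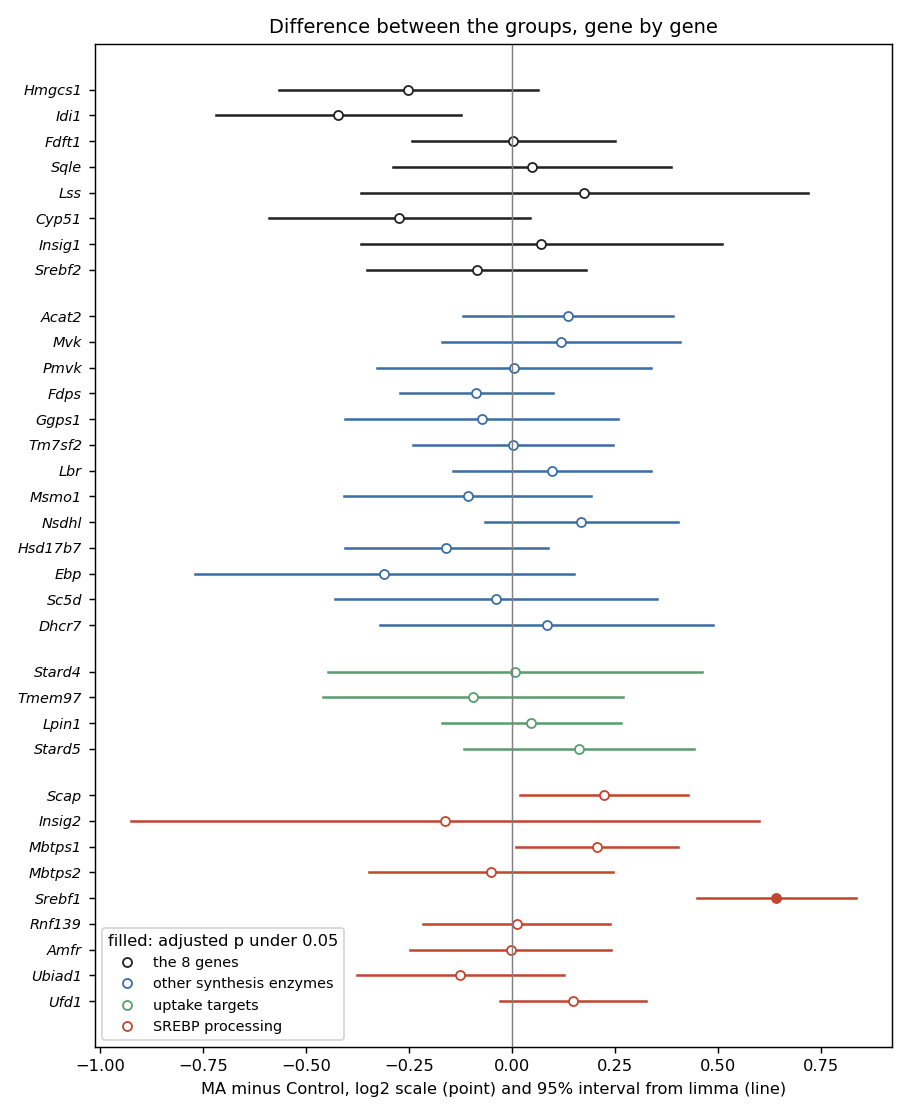
Difference MA minus Control on the log2 scale (point) with its 95% interval from limma (line) for the 8 genes, the other synthesis enzymes, the uptake targets and the SREBP processing genes that were tested. Filled points passed the adjusted threshold: Srebf1, at 0.64, is the only one, and of the 8 genes only Idi1, at -0.42, has an interval clear of 0.

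The genes listed as uptake and transport targets gave no call, and Npc1l1, which brings sterol in, was not among those tested. Of 5 listed, 4 were tested, 3 higher and 1 lower, with a median log2 fold change of 0.03, and none reached an unadjusted p under 0.05 or the adjusted threshold (limma). Stard4, a sterol carrier between membranes, was 1.71, 1.75 and 1.97 in the Control libraries and 2.19, 1.83 and 1.44 in the MA libraries. The MA libraries lay on both sides of the Control range, and the difference was 0.0072 (limma adjusted p = 0.995). Stard5, Tmem97 and Lpin1 differed by 0.16, -0.10 and 0.05. Npc1l1 fell below the filter on low values, at 0.20 to 0.48 on the log2 scale.

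The 16 genes listed under fatty acid synthesis and SREBP1 targets, not all of them synthesis enzymes, were all tested. Of these, 10 were higher and 6 lower, with a median log2 fold change of 0.12. None passed the adjusted threshold (limma), and 1 in each direction reached an unadjusted p under 0.05. Over all tested genes, 4.99% were higher and 5.46% lower at that unadjusted threshold. Acacb, the acetyl-CoA carboxylase of the mitochondrial surface, was 0.81, 0.56 and 0.70 in the Control libraries and 1.91, 1.33 and 1.55 in the MA libraries, without overlap. Its difference was 0.91 (standard error 0.16, limma adjusted p = 0.117). This low gene depends on the offset of the log scale, and with pseudocounts of 0.1 and 0.01 the difference was 1.57 and 1.71 (limma adjusted p = 0.0992 and 0.113). Elovl6, a fatty acid elongase, was the one on the other side, at 3.21 to 3.43 against 2.75 to 3.10, a difference of -0.36 (limma adjusted p = 0.375). Acss2, which makes acetyl-CoA from acetate, and Fasn, the fatty acid synthase, differed by 0.21 and -0.18 and did not pass. Members of this list thus lay on both sides of 0.

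Of 16 genes of sterol efflux, oxysterols and storage, 15 were tested, and 8 were higher and 7 lower, with a median of 0.05 and none past the adjusted threshold (limma). Cyp7b1, which hydroxylates oxysterols, was lower in each MA library, at 3.02 to 3.36 against 3.48 to 3.77, with a difference of -0.38 (unadjusted p = 0.0186, limma adjusted p = 0.365). Cyp46a1, the neuronal enzyme through which cholesterol leaves the brain, was higher in each MA library by a small amount, 0.13 on average (limma adjusted p = 0.592). Apoe, the sterol carrier of astrocytes, held the top value of the table in MA replicates 1 and 2, so that its level there may be capped. In MA replicate 3 the choroid plexus marker Ttr held that top value, and Apoe stood at 11.71, the same level as in Control replicates 1 and 2. The Apoe difference of 0.31 (limma adjusted p = 0.599) was 0.50 without MA replicate 3 (limma adjusted p = 0.0507) and 0.21 without MA replicate 1 or without MA replicate 2. The part of these shared levels in the Apoe difference was not tested. Abcg1, a sterol exporter, differed by -0.12.

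The cellular makeup of the samples matters for this pathway, since astrocytes and oligodendrocytes carry much of it. In bulk tissue, fewer cells of a type and less RNA per cell cannot be told apart. As background for the counts that follow, 4.99% of all tested genes were higher and 5.46% lower at an unadjusted p under 0.05 (limma). Hippocampal markers were present: Neurod6, of pyramidal neurons, was 6.08 to 6.49 in the Control libraries and 5.74 to 5.97 in the MA libraries, and Prox1, of granule cells, 3.32 to 3.67 and 3.26 to 3.48. Of the 10 markers of hippocampal subfields 9 were lower, with a median log2 fold change of -0.13 and 0 past the adjusted threshold (1 higher and 2 lower at an unadjusted p under 0.05, limma). The higher one, Grp, had the largest difference of the list, 0.71 (unadjusted p = 0.0198, limma adjusted p = 0.371), with every MA library above every Control library. Of 12 oligodendrocyte markers 11 were lower, with a median of -0.26 and 0 past the adjusted threshold (1 at an unadjusted p under 0.05, limma), and their summed back-transformed level was 3093 to 3433 RPKM in the Control libraries and 2865 to 3588 RPKM in the MA libraries. Mbp, the 1 marker that was higher, made up most of this sum. Its back-transformed mean was 1825 RPKM in Control and 1967 RPKM in MA. Of 8 astrocyte markers 7 were lower, with a median of -0.10 and 0 past the adjusted threshold (1 at an unadjusted p under 0.05, limma), and the sum was 544.8 to 590.2 RPKM in Control and 419.3 to 658.9 RPKM in MA. MA replicate 3 had the lowest astrocyte sum of the 6 libraries, the lowest neuron sum (2014 RPKM against 2334 to 2685 RPKM) and the lowest sum of the 8 genes (131.7 RPKM against 149.6 to 182.6 RPKM). Its oligodendrocyte sum, 3588 RPKM, was in contrast the highest of the 6 libraries. The part of these cells in the values of the 8 genes was not tested.

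The choroid plexus markers were higher without exception, 8 of 8. Of these, 5 passed the adjusted threshold (limma), where 0.165% of all tested genes passed it as higher. The median log2 fold change of the markers was 1.70. Their summed level was 65.9 to 421.1 RPKM in the Control libraries and 1779 to 5083 RPKM in the MA libraries, most of it from Ttr, and none of the 8 markers was listed at 0. All 7 thalamic markers were higher, with none past the adjusted threshold and 3 at an unadjusted p under 0.05 (limma), and their sum was 26.7 to 35.5 RPKM in Control and 73.6, 95.7 and 28.0 RPKM in MA replicates 1, 2 and 3. All 6 endothelial markers were higher, with a median log2 fold change of 0.22 and 0 past the adjusted threshold (2 at an unadjusted p under 0.05, limma), and their sum was 150.2 to 172.5 RPKM in Control and 167.3 to 208.0 RPKM in MA. Among them Cldn5, of the tight junctions, was higher by 0.30 without overlap (unadjusted p = 0.00448, limma adjusted p = 0.241). Of all tested genes, 4.99% were higher at an unadjusted p under 0.05 (limma). Sums of the 7 microglial, 7 oligodendrocyte precursor and 8 neuronal markers overlapped between the groups. None of the choroid plexus, thalamic and endothelial signals was tested for a part in the differences of the 8 genes.

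**Figure D4:**
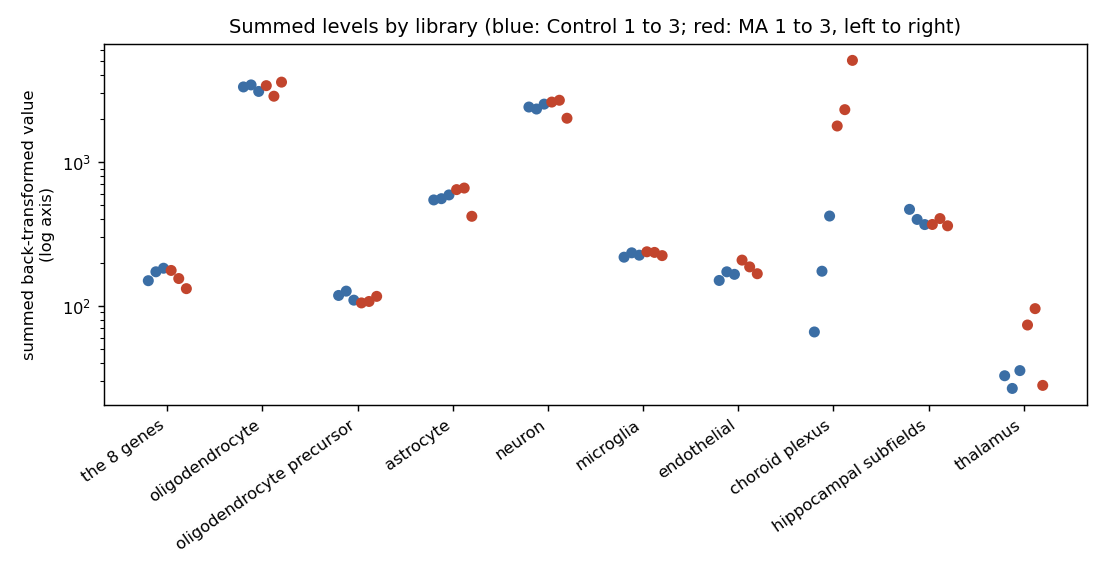
Summed back-transformed value (RPKM, log axis) of the 8 genes and of each list of cell type or region markers in the 6 libraries, Control 1 to 3 in blue and MA 1 to 3 in red. The choroid plexus list is the one whose groups are far apart, 65.9 to 421.1 against 1779 to 5083, whereas the sums of the 8 genes overlap, at 149.6 to 182.6 and 131.7 to 176.3.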

How the data were processed

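RNA-seq of mouse hippocampus was analysed in 3 Control and 3 MA libraries, grouped by sample title. According to the study's methods, alignment was by Hisat2, gene counting by featureCounts, and values were expressed as FPKM. The submitters' processing notes name Bowtie 0.12.2 and the builds mm8 and mm9, so the build is uncertain, and coordinates from GENCODE and RefSeq on GRCm38 are given for location only. The table the authors deposited carries RPKM in its name, whereas its values fit log2 of RPKM plus 1 and were used as such. Base 2 gives sums of 487712 to 488572 RPKM per library. The transform and the normalization between libraries are not described. Depth is unknown, so no interval that needs it is given.

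Differences of these deposited log2 values were fitted with limma 3.58.1 in R 4.3.3 (lmFit, eBayes with trend, two-sided, no covariate) over the 13321 genes that reached 0.5 RPKM after back-transformation in 3 or more libraries, with Benjamini-Hochberg adjustment and a threshold of 0.05. The step was tested on simulated data. The study's own count test could not be run on normalized values. Single values were also tested with an exact permutation test over the 6 libraries. The labels describe each sample as a mouse, and p-values measure the spread between these libraries.

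Named genes were the 8 genes, the further synthesis enzymes, Scap, Insig2, Srebf1, Mbtps1 and Mbtps2, the up to 4 genes of smallest p in each other list, and the 5 genes of closest profile. The genes overlapping or paralogous to them, Npc1l1, Mbp, Ttr, Neurod6, Prox1, Grp, Cldn5 and the 4 immediate early genes were named after their values were seen, and so were the promoter motifs. Some genes of the lists are not reported here, and counts and medians of lists were taken without them. The 8 genes and all lists were chosen with earlier results of these data known. Alternatives were pseudocounts of 0.1 and 0.01, no filter, a minimum mean of 5, median centring, quantile normalization, eBayes without trend, sample quality weights, a replicate block and leaving out each library.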

Additional observations from a re-analysis of the deposited data

How the results depend on the processing

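For the 8 genes, the count past the adjusted threshold (limma) stayed at 0 in the 9 alternatives of scaling, filter, pseudocount and variance model or block and in the 6 fits that left out 1 library. With a minimum mean of 5 this covers the other 7 genes, since Lss was not tested there. Median centring and quantile normalization could change little, since nearly all values already came from 1 shared set of levels. Idi1 was -0.423 and -0.424 in these fits, against -0.421 in the reported fit. The smallest adjusted p, 0.0600, was that of Idi1 with sample quality weights, where Cyp51 also reached an unadjusted p under 0.05, and without MA replicate 1 the unadjusted threshold was reached by Hmgcs1, Idi1 and Cyp51. Idi1 stayed lower throughout, between -0.54 and -0.32. Over the omissions of 1 library, the direction turned in at least 1 fit for Fdft1 (-0.0743 to 0.0841), Insig1 (-0.0909 to 0.215), Sqle (-0.0853 to 0.193) and Srebf2 (-0.147 to 0.0162), and among the further named genes for Dhcr7 (-0.118 to 0.189), Ggps1 (-0.180 to 0.0311), Insig2 (-0.427 to 0.231), Mbtps2 (-0.158 to 0.0187), Mvk (-0.00478 to 0.199), Pmvk (-0.153 to 0.0922), Sc5d (-0.184 to 0.132), Stard4 (-0.178 to 0.198), Tm7sf2 (-0.0709 to 0.0644) and Tmem97 (-0.222 to 0.0287). Sample quality weights turned Ggps1 (0.0453), Insig2 (0.161), Mbtps2 (0.0511), Pmvk (-0.146), Sc5d (0.0550) and Tm7sf2 (-0.0741), and quantile normalization turned Tm7sf2 (-0.00144) and Stard4 (-0.00288). Stard4 also turned with pseudocounts of 0.1 (-0.00383) and 0.01 (-0.00596). The cause was not tested.

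Over all tested genes, 35 passed in the reported fit, 3 with no filter, 20 with a minimum mean of 5, 586 with sample quality weights and 15 with the replicate block, and 0 to 257 with 1 library left out, the highest without MA replicate 3. Among the genes of SREBP processing the count of 1, Srebf1, became 0 under the replicate block or without a filter, and was 0 to 1 with 1 library left out. Sample quality weights gave 1 call among fatty acid genes, Acacb, and 1 among efflux genes, Apoe. The median of the SREBP processing genes, 0.011, became 0.147 with a minimum mean of 5 and 0.136 with sample quality weights, and ranged from -0.0203 to 0.164 with 1 library left out. That of the efflux genes ranged from -0.0777 to 0.0668 and that of the uptake targets from -0.0639 to 0.116. Control and MA libraries of one number did not deviate together (r of -0.197, -0.242 and -0.337 for numbers 1, 2 and 3). Such correlations across genes cannot show how the mice were matched, so whether the numbers pair the mice is unknown. None of the 8 genes was called with or without the block, so there was no call among them for it to remove. Unknown depth limits what can be said of low genes such as Lss.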
